A study of Mus musculus with 6 samples.

Results

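AP-1 is a dimer of basic leucine zipper (bZIP) proteins, and 10 genes were followed here: the 4 Fos family subunits Fos, Fosb, Fosl1 and Fosl2, the 3 Jun family subunits Jun, Junb and Jund, the related bZIP repressor and activator Atf3, and the immediate early regulators Egr1 and Ier2. They were taken by symbol through GENCODE M21, and all 10 had a row among the 53465 genes of the count table. The values are counts of ribosome-protected fragments from ID8, a cancer cell line derived from mouse ovarian surface epithelium. Ribosome profiling sequences the pieces of mRNA that ribosomes shield from nuclease, so a count reflects the amount of the mRNA and its occupancy by ribosomes together. There were 3 libraries labelled KO, from cells with a guide RNA against Nat10, and 3 labelled WT, from cells with a control guide. All 6 received cycloheximide (100 µg/mL for 2 minutes) before harvest. NAT10 acetylates cytidine in RNA to N4-acetylcytidine, and the series asks how its loss changes translation. The sources used here do not say whether the cells were a clone or a pool, or whether replicates were separate cultures, so p-values measure the spread between these libraries.

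As background, Fos proteins cannot pair with themselves and bind DNA mostly as partners of a Jun protein, while Jun proteins also pair with each other. The dimers bind the 12-O-tetradecanoylphorbol-13-acetate response element, or TRE, and the cyclic AMP response element, or CRE. Fos, Fosb, Jun, Junb, Egr1, Ier2 and Atf3 are immediate early genes: growth factors, stress and cell handling switch on their transcription within minutes through kinases and serum response factor, and their mRNAs and proteins are short-lived. In epithelial tumours Fosl1 and Fosl2 are the longer-lived Fos partners.

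The stretch that encodes the DNA-contacting basic region and the start of the leucine zipper is the part that the bZIP genes share, and it decides whether a short fragment can be told apart between them. It is given for Fosl2, Junb and Jun, which had the most fragments, and for Fos, as the coding strand with the signature of the basic region in capitals.
Fosl2: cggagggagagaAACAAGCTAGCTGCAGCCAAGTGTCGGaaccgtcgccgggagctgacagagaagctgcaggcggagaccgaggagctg
Fos: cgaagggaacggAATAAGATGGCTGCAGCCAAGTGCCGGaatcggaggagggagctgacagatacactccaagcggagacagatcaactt
Junb: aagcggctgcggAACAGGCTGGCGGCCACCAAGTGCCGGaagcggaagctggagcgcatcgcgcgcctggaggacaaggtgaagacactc
Jun: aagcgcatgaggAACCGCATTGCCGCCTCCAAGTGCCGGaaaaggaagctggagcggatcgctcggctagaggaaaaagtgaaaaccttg
The Junb stretch lies in GRCm38 at chr8:84977530-84977619 and the Jun stretch at chr4:95050402-95050491, both on the minus strand and each in the only exon of its gene. The other 2 are each interrupted by an intron and cover coding bases 388 to 477 of Fosl2 and 427 to 516 of Fos. Over these 90 bases Fosl2 had 74.4% identity to Fos and 56.7% to Junb, and Junb had 76.7% identity to Jun. The longest identical run between any pair of the Fos and Jun family coding sequences was 20 bases (Jun and Jund). None of the windows of 25 bases, the shortest fragment kept, in the coding sequences of the 10 genes matched a transcript of another gene in GENCODE M21 exactly, although the sources used here do not say how the authors treated mismatches and reads with several matches. Junb overlaps Prdx2 on the opposite strand by 351 bases, none of them coding in Junb, and Prdx2 had 2518 counts over the 6 libraries. Ccdc85b, with 59 counts, covers 522 coding bases of Fosl1 on the opposite strand, and without a stated strand setting fragments there cannot be assigned.

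Total gene counts were 2234305 to 3126208 in the libraries labelled KO and 1687466 to 2148715 in those labelled WT. Gene counts clustered at a modal count of 42 to 60 in KO and 15 to 39 in WT, far above 1, and a count divided by this modal count is given as molecule equivalents, a guide to how many independent fragments lie behind it. Levels are in CPM, counts scaled to a common library total after TMM adjustment. If every count were an independent fragment, a count of 0 would allow up to 3 counts, or 0.931 to 1.82 CPM in these libraries. With modal counts far above 1, that bound is only 0.05 to 0.2 molecule equivalents, so a count of 0 allows higher levels than these. No difference was detected for Nat10 itself, with counts in KO of 315, 133 and 445, against 168, 128 and 292 in WT (log2 fold change -0.074, SE 0.48, 95% interval -1.09 to 0.94), so every direction here goes by the labels, with no loss of Nat10 seen in the fragments. All 7 markers of ovarian surface epithelium were detected, and their summed level was 4180 to 4827 CPM in KO and 5854 to 6330 CPM in WT; the part of this shift in the results was not tested, and fewer cells of a type cannot be told apart from fewer fragments per cell. Markers of leukocytes, fibroblasts, endothelium and erythroid cells summed to 5.46 CPM or less in each KO library and 5.996 CPM or less in each WT library, and Cd3e, Itgam, Thy1 and Hba-a1 had no count.

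No AP-1 or immediate early gene of the 10 passed the test between the labels, and Fosl2 and Junb came closest among those with several molecule equivalents. Of the 10 genes 9 passed the filter on low counts and Fosl1 did not. By edgeR's quasi-likelihood test 0 of the 9 had an adjusted p under 0.05 over all 8200 genes tested, where 0.402% of genes were called. One gene, Fosl2, had an unadjusted p under 0.05, which 6.49% of all tested genes had. DESeq2 called 1 of the 10, Fosl2, where it called 2.5% of its genes, and limma-voom called 0, where it called 0.524%. In 4 of the 10 genes (Fosl2, Junb, Atf3 and Fosb) every library labelled KO lay above every WT library, a separation that 6.94% of all tested genes showed. For Fosb and Atf3 this rested on counts near or below the modal counts, and Atf3 passed the filter on low counts through its KO libraries.

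**Figure D1:**
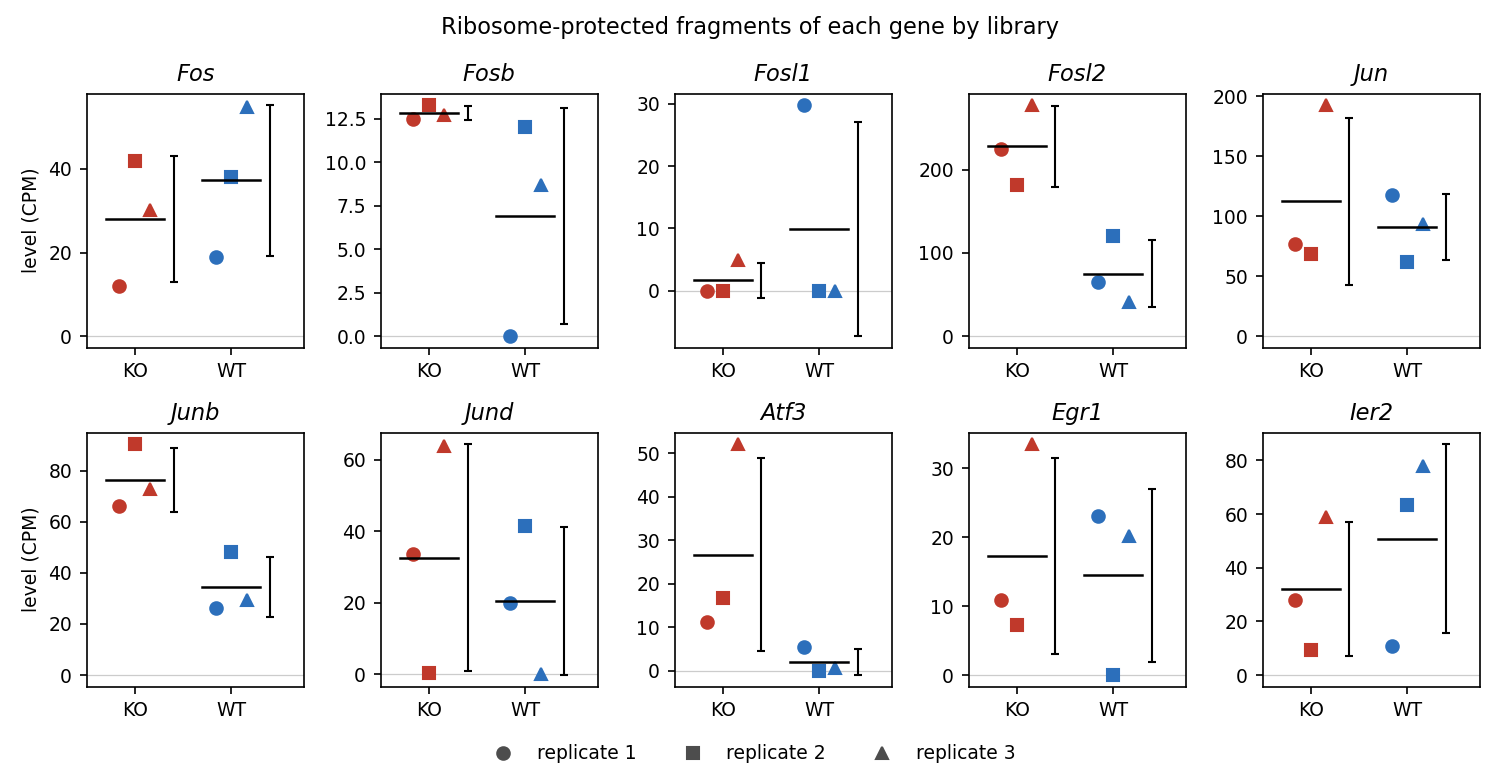
Level of each gene in CPM (vertical axes, each with its own scale) in the 3 libraries labelled KO (red) and the 3 labelled WT (blue), with marker shape for the replicate number, a line for the group mean and a bar for 1 SD. Fosl2, Junb, Atf3 and Fosb have all KO points above all WT points, while Jun, Jund, Egr1, Fos, Ier2 and Fosl1 overlap. Atf3 and Fosb do so on counts mostly below the modal counts.

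Fosl2 encodes FRA-2, a Fos family subunit that lacks the strong activation domain of FOS, and lies on the plus strand at chr5:32135801-32157842. It had 225, 181 and 278 CPM in the libraries labelled KO, against 65.1, 119.9 and 40.5 CPM in WT. The lowest KO library was thus above the highest WT library. The group means were 228 ± 48.3 CPM in KO and 75.2 ± 40.7 CPM in WT (SD, n = 3 each). The log2 fold change was 1.60 (SE 0.42, 95% interval 0.71 to 2.49, edgeR adjusted p = 0.18, unadjusted p = 0.0017), rank 77 of 8200 by p. In 17 other settings the fold change stayed between 1.30 and 2.11. DESeq2 (adjusted p = 0.0022), edgeR with no count filter (adjusted p = 0.011, 0.711% of all genes called), edgeR on molecule equivalents (0.0077, 11.4% called) and edgeR with the replicate block and an offset for coding length and GC (0.039, 0.61% called) called it, and none of the 6 fits without a single library did (adjusted p 0.17 to 0.58, unadjusted p 0.00040 to 0.011). As molecule equivalents, before any scaling for depth, Fosl2 had 13.7, 9.20 and 14.9 in KO and 7.13, 11.4 and 1.79 in WT. These values are not scaled to the total molecule equivalents, which were 48572 to 60507 in KO and 46442 to 112498 in WT.

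Of the other Fos subunits, Fosb alone kept the labels apart, and only narrowly. Fos, the prototype immediate early subunit (chr12:85473890-85477273), had 12.1, 42.0 and 30.1 CPM in KO, against 18.8, 38.0 and 54.9 CPM in WT. The groups overlapped throughout, and the log2 fold change was -0.41 (SE 0.98, 95% interval -2.50 to 1.68). Without WT replicate 3 it was -0.021 and without KO replicate 2 it was -0.81. Fosb, a close relative of Fos, had 12.5, 13.3 and 12.7 CPM in KO, against 0, 12.0 and 8.67 CPM in WT. Its lowest KO value exceeded its highest WT value by under 1 CPM, each KO count lay below the modal count, and the log2 fold change was 0.89 (95% interval -3.99 to 5.76), with 0.31 without WT replicate 1 and 1.55 without WT replicate 2. Fosl1, which encodes FRA-1, had counts of 0, 0 and 16 in KO and 49, 0 and 0 in WT. Its fragments came from 1 library of each label, and it failed the count filter of the main test. DESeq2 and edgeR with no count filter did test it and did not call it. The fits without KO replicate 1, KO replicate 2, WT replicate 2 or WT replicate 3 also tested it without calling it.

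The share of Fosl2 among all fragments of the 4 Fos genes is free of the scaling between libraries. It was 90.2% (95% exact Clopper-Pearson interval 87.6% to 92.4%), 76.6% (72.9% to 80.1%) and 85.3% (83.0% to 87.4%) in the libraries labelled KO, against 57.2% (49.8% to 64.4%), 70.6% (65.4% to 75.4%) and 38.9% (31.7% to 46.4%) in WT. The intervals cover counting error only and are too narrow where amplified copies of a fragment were counted. Behind these shares lay 15.2, 12.0 and 17.5 molecule equivalents of the 4 Fos genes in KO, and 12.5, 16.2 and 4.62 in WT. Fosl2 was the largest contributor in every library except WT replicate 3, where Fos exceeded it. All 4 genes together averaged 270.5 ± 48.1 CPM in KO and 129 ± 35.5 CPM in WT (SD, n = 3 each). With Fosl2 so large a part of the sum, this repeats its own difference, and no test was made.

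**Figure D2:**
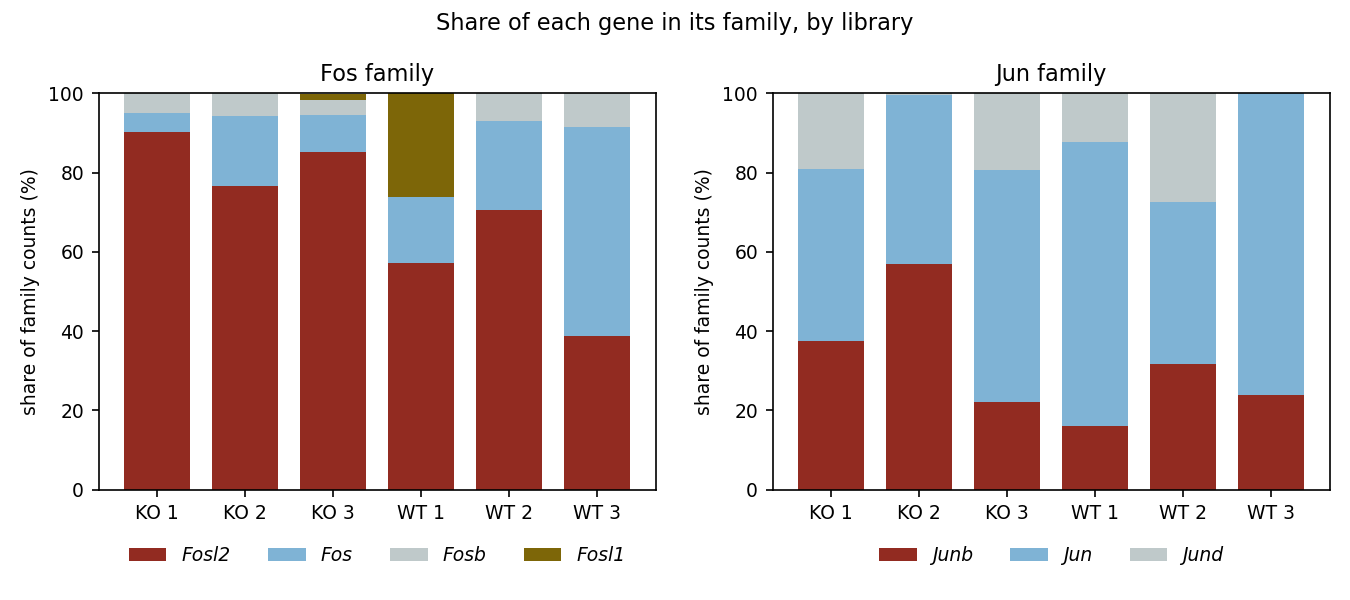
Share in percent of each gene in the fragments of the Fos family (left) and of the Jun family (right), not scaled for coding length, in the libraries labelled KO (first 3 bars) and WT (last 3 bars). Fosl2 takes 76.6% to 90.2% of Fos family fragments in KO and 38.9% to 70.6% in WT, and the Junb share of the Jun family overlaps between the labels.

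Among the Jun genes, which supply partners of the Fos proteins, Junb was the one whose groups did not overlap. Junb, in many settings a weaker activator than JUN, lies on the minus strand at chr8:84974484-84978718 and had 65.9, 90.3 and 72.9 CPM in KO, against 26.1, 48.0 and 29.5 CPM in WT. The means were 76.4 ± 12.6 CPM in KO and 34.5 ± 11.8 CPM in WT (SD, n = 3 each), and the log2 fold change was 1.14 (SE 0.59, 95% interval -0.11 to 2.40, edgeR adjusted p = 0.86, unadjusted p = 0.071). It had 2.87 to 4.59 molecule equivalents in 5 of the 6 libraries and 1.31 in WT replicate 3, and none of the 16 other settings called it. Jun itself had 76.5, 68.1 and 193 CPM in KO, against 117, 62.0 and 93.7 CPM in WT. KO replicate 3 stood above every other library and the remaining KO libraries lay inside the WT range. The log2 fold change of Jun was 0.31 (SE 0.49, 95% interval -0.74 to 1.35), and it was -0.34 without KO replicate 3. Jund, usually the more constantly expressed Jun subunit, had 33.5, 0.43 and 63.9 CPM in KO, against 20.1, 41.5 and 0 CPM in WT. Its libraries of 1 label differed more than the labels did (log2 fold change 0.67, 95% interval -2.85 to 4.19, and -0.27 without KO replicate 3). The share of Junb in the fragments of the 3 Jun genes was 38.8 ± 17.4% in KO and 23.9 ± 7.85% in WT (SD, n = 3 each), and the groups overlapped.

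Atf3, a stress-induced bZIP factor that pairs with Jun proteins, had the largest fold change of the 9 tested genes and also one of the widest intervals. It had 11.3, 16.7 and 52.1 CPM in KO, against 5.47, 0 and 0.58 CPM in WT. All KO libraries were above all WT libraries, yet its counts summed to 236 over KO and 10 over WT and reached the modal count in KO replicate 3 alone. The log2 fold change was 3.70 (SE 2.27, 95% interval -1.14 to 8.55, edgeR adjusted p = 1.0, unadjusted p = 0.12), and it ran from 2.76 without KO replicate 3 to 6.33 without WT replicate 1. Atf3 passed the filter on low counts through its KO libraries. Its place among the tested genes thus favours a positive fold change and is no evidence for its direction.

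Egr1 encodes a zinc finger activator that binds GC-rich promoter sites, and Ier2 a small nuclear protein of the immediate early response. Egr1 had 10.9, 7.28 and 33.5 CPM in KO, against 23.1, 0 and 20.2 CPM in WT. The groups overlapped, with a log2 fold change of 0.26 (95% interval -3.98 to 4.49) that turned to -0.67 without KO replicate 3 and -0.33 without WT replicate 2. Ier2 had 28.1, 9.42 and 58.9 CPM in KO, against 10.9, 63.5 and 78.1 CPM in WT. These also overlapped, with a log2 fold change of -0.66 (SE 0.91, 95% interval -2.60 to 1.28), which was -1.44 without KO replicate 3 and -0.21 without WT replicate 3.

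**Figure D3:**
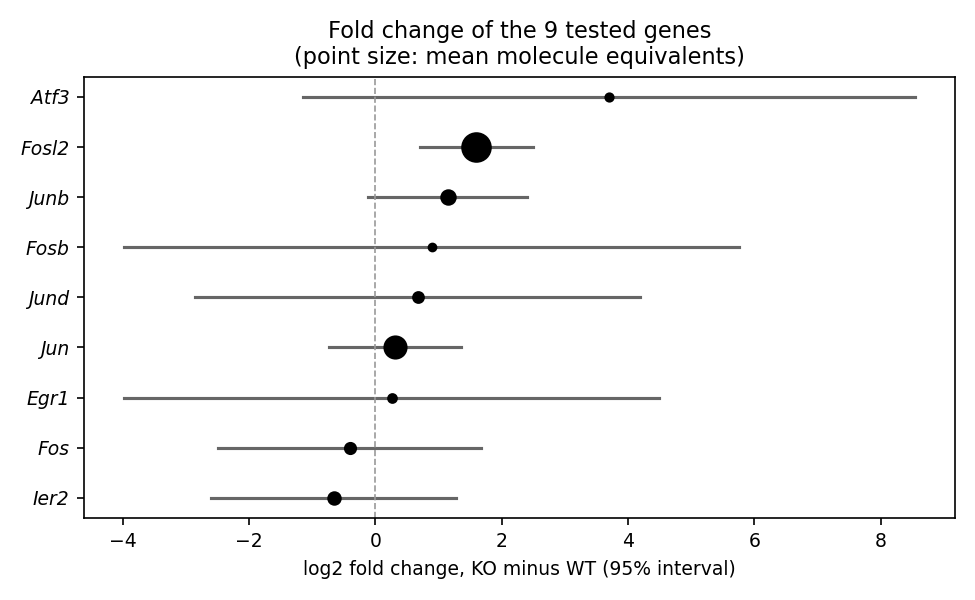
Log2 fold change of the 9 tested genes, libraries labelled KO minus WT (horizontal axis), with 95% intervals from edgeR as lines and point size rising with mean molecule equivalents. Only the interval of Fosl2, from 0.71 to 2.49, lies wholly above 0, and the genes with the smallest points have the widest intervals.

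One library, KO replicate 3, was the highest for several of these genes at once. It held the highest level of the 6 libraries for 5 of the 10 genes (Fosl2, Jun, Jund, Atf3 and Egr1), while over all tested genes it held the highest level for 17.3%. WT replicate 3 held it for Fos and Ier2, KO replicate 2 for Fosb and Junb, and WT replicate 1 for Fosl1. The Jun family summed to 176, 159 and 329 CPM in KO and 164, 151 and 123 CPM in WT, so that sum too was highest in KO replicate 3. Without that library the log2 fold change of Fosl2 was 1.43 and that of Junb 1.17, and those of Jun, Jund and Egr1 were negative.

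Levels per coding length place Fosl2 and Jun first. Per kilobase of coding sequence and over all 6 libraries, Fosl2 had 155 ± 94.8 CPM, Jun 101 ± 48.7 CPM, Ier2 62.6 ± 44.1 CPM and Junb 53.7 ± 24.6 CPM (SD, n = 6). Fos (28.6 ± 13.8), Atf3 (26.5 ± 36.0) and Jund (26.0 ± 24.3 CPM per kilobase) followed, and Egr1 (9.91 ± 7.57), Fosb (9.72 ± 5.03) and Fosl1 (7.07 ± 14.6) were lowest. Neighbours in this order differed by less than the larger SD of the pair, except Junb and Fos, which differed by slightly more. The order differed by label. Fosl2 had 233 ± 49.4 CPM per kilobase in KO and 76.8 ± 41.6 CPM per kilobase in WT, and Jun 112 ± 69.5 in KO and 90.8 ± 27.7 in WT (SD, n = 3 each). Junb averaged 74.0 CPM per kilobase in KO and 33.5 in WT, and Ier2 48.5 in KO and 76.6 in WT, so that Junb was above Ier2 in KO and below it in WT. Atf3 averaged 49.2 CPM per kilobase in KO and 3.71 in WT, the lowest WT mean of the 10 genes. Jun had the highest mean per kilobase of the 10 genes in WT and Fosl2 in KO, but the WT values of both overlapped.

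Most of these genes have short coding sequences rich in G and C. Their median coding length was 1008 bases, against 1473 bases over the 8087 tested protein-coding genes, and their median GC content was 62.1%, against 52.1%. Codons ending in C made up a median of 38.5% of their codons and 28.7% over the tested genes. Cytidine is the base that NAT10 acetylates, but these counts do not measure acetylation, and a link to the levels was not tested. Egr1, at 1599 bases, was the one gene of the 10 above the median length, and Atf3 was the one below the median GC content, at 51.0% GC and 25.4% of codons ending in C. Jun, Junb, Jund and Ier2 have a single exon, which 1.88% of the tested protein-coding genes have. With an offset in each library for coding length and GC, which left 0.402% of all genes called, none of the 9 genes was called and Fosl2 stood at 1.67 (adjusted p = 0.091).

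The promoters of the pair with separated levels above the modal counts, from RefSeq on GRCm38.p6, are shown with motif matches in capitals. The window runs from 250 bases before to 50 bases after the annotated start, at chr5:32136222-32136521 on the plus strand for Fosl2 and chr8:84978699-84978998 on the minus strand for Junb.
Fosl2: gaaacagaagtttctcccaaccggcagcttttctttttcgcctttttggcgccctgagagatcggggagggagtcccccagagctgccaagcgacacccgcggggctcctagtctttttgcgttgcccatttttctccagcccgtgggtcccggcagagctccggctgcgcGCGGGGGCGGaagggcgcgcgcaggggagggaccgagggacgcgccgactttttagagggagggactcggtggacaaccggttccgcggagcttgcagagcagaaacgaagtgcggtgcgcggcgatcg
Junb: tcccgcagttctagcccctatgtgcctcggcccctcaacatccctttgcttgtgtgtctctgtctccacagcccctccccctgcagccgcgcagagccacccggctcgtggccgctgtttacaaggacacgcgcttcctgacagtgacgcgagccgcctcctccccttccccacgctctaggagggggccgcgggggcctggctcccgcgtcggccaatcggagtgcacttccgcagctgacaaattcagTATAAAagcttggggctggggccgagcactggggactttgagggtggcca
The table held promoters of 7 of the 10 genes (all but Fosl1, Egr1 and Ier2), and each motif was searched on both strands. In Fosl2 the capitals mark the EGR site GCGNGGGCG, 79 bases before the start, which 5.55% of 32851 promoters hold, and the GC box GGGCGG, which overlaps it and which 35.7% hold. In Junb they mark TATAAA at the RefSeq start, held by 13.6% of promoters. Fosb also held the EGR site, and Jun held the CRE variant TGACNTCA 45 bases before its start, as did 8.83% of all promoters. The TRE TGANTCA (7.81% of promoters), the full CRE TGACGTCA (1.79%) and the CArG box of serum response factor (1.63%) were not in these 7 windows. Sites further than 250 bases before the annotated start were not searched. The annotated starts used for the windows differ from those of GENCODE for several genes. The Fosl2 window lies wholly downstream of the GENCODE start of Fosl2 at 32135801, so by that annotation its sites lie inside the gene. The GENCODE start of Junb, at 84978718, lies within the Junb window, downstream of the TATAAA match. The Atf3 window lies inside the GENCODE gene, which starts at 191218039 on the minus strand. The Jund window ends at base 70697788 of chromosome 8, upstream of the GENCODE start of Jund at 70698949.

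Most related genes of the pathway did not pass the same test. Other immediate early genes had 28 of 41 tested, 0 called and a median log2 fold change of 0.11, against -0.016 over all tested genes. Of the 28, 16 were positive, which is 57.1%, against 49.0% of all tested genes. Ptgs2, the inducible cyclooxygenase, had 499, 408 and 473 CPM in KO, against 93.0, 199 and 216 CPM in WT. Its groups did not overlap (log2 fold change 1.44, SE 0.31, edgeR adjusted p = 0.065), and 7 of 17 other settings called it, none of them a fit without a single library (adjusted p 0.13 to 0.25). Plk2, a polo-like kinase, had 413, 637 and 582 CPM in KO, against 376, 278 and 182 CPM in WT, and likewise did not overlap (0.96, SE 0.28, edgeR adjusted p = 0.30, called in 3 of 17 other settings). Ccn2, a secreted matricellular protein, stood at 1.004 (SE 0.29, edgeR adjusted p = 0.29), and 3 of 17 other settings called it.

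Other bZIP factors that can pair with or compete with AP-1 had 16 of 23 tested, 0 called and a median of -0.13. Of the 16, 7 were positive, which is 43.8%. Atf4, a bZIP activator induced by amino acid and ER stress, had 176, 188 and 172 CPM in KO, against 464, 362 and 317 CPM in WT. Every KO library was below every WT library (log2 fold change -1.09, SE 0.26, edgeR adjusted p = 0.11), and 2 of 17 other settings called it. Cebpb stood at -0.67 (SE 0.45) and Cebpd at 3.33 (SE 2.19), each with overlapping groups. Cebpd had counts of 4, 200 and 56 in KO and 17, 0 and 0 in WT, and its log2 fold change was 1.47 without KO replicate 2 and 9.37 without WT replicate 1. Upstream kinases and serum response factor partners had 21 of 25 tested, 0 called and a median of 0.11. Of the 21, 13 were positive, which is 61.9%. The MAP kinase kinase Map2k2 stood at 1.28 (SE 0.62), the kinase Mapkapk2 at 1.03 (SE 0.54) and the p38 kinase Mapk14 at 0.81 (SE 0.56), none past the threshold and all with overlapping groups.

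Among 17 tested genes of 24 often listed as AP-1 targets, the median log2 fold change was 0.30, with 10 positive and 7 negative. The positive share was 58.8%, against 49.0% of all tested genes and 61.9% of the upstream kinases and serum response factor partners. Cd44, a hyaluronan receptor, had 644, 590 and 690 CPM in KO and 323, 340 and 332 CPM in WT, a separation that did not pass (0.95, SE 0.21, edgeR adjusted p = 0.066) and that 4 of 17 other settings called. Timp1, an inhibitor of metalloproteases, stood at 2.37 (SE 0.79, edgeR adjusted p = 0.44), and 2 of 16 other settings called it. Ccnd1, which encodes cyclin D1, had 138, 232 and 66.7 CPM in KO, against 280, 342 and 264 CPM in WT. Every KO library was below every WT library (log2 fold change -1.02, SE 0.39, edgeR adjusted p = 0.55, unadjusted p = 0.019), and 1 of 17 other settings called it. Its fold change was -1.53 without KO replicate 2 and -0.68 without KO replicate 3. These genes also answer to other pathways, and which factor drives them was not measured.

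**Figure D4:**
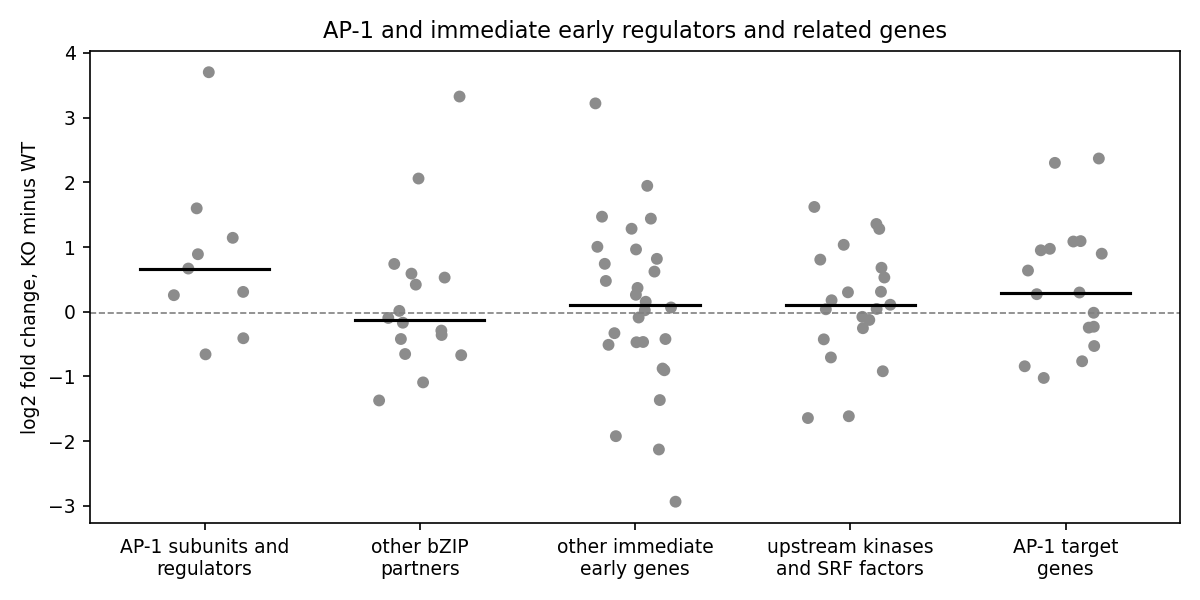
Log2 fold change, libraries labelled KO minus WT, of the tested genes of each group (points, horizontal spread added for sight), with group medians as solid lines and the median of all tested genes, -0.016, dashed. The medians are 0.67 for the 9 tested AP-1 and immediate early regulators, Atf3 among them, and 0.30 for the 17 AP-1 target genes plotted. They are -0.13 for the other bZIP partners, 0.11 for the other immediate early genes and 0.11 for the upstream kinases and serum response factor partners. The median of 0.67 is the value of Jund itself (95% interval -2.85 to 4.19), which was -0.27 without KO replicate 3. Jun and Egr1 were also negative without that library.

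The genes whose levels across the 6 libraries ran most like those of Fosl2 were Oxr1, Ccn2 and Creb3. Among 1739 other tested genes with at least 100 CPM, their distances from Fosl2 were 0.85, 0.85 and 0.96 (Euclidean, on log2 of CPM plus 1, centred on the mean of each gene). Oxr1, an oxidation resistance gene, had 185, 120.3 and 203 CPM in KO, against 54.7, 101 and 57.8 CPM in WT. Creb3, a bZIP factor anchored in the endoplasmic reticulum, had 416, 317 and 414 CPM in KO, against 181, 170 and 116 CPM in WT. The likeness was measured over libraries that differ by label, so a gene that differs between labels is favoured by it.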

How the data were processed

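The authors deposited whole-number counts per Ensembl gene for 6 libraries, not normalized. Per the labels' protocols, fragments of 25 to 34 nt that matched no rRNA or tRNA by Bowtie were aligned to GRCm38 with HISAT2. Per the submitters' processing notes, featureCounts and DESeq2 were used, with roles not given in the sources used here. Of 53465 identifiers 53360 matched GENCODE M21.

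Counts were tested with edgeR 4.0.16 (R 4.3.3; quasi-likelihood, robust, TMM, filterByExpr, Benjamini-Hochberg over 8200 genes, threshold 0.05). Intervals of fold changes include the spread between libraries. Other settings used DESeq2 1.42.0, limma 3.58.1, other scaling and filters, removal of mitochondrial and the 10 most abundant genes, an offset for coding length and GC, the replicate number, molecule equivalents and leaving out each library. Modal counts are peaks of smoothed count histograms (bandwidth 3, counts 8 to 150). The genes and lists were chosen with earlier results of these data known. The text names the 10 genes, the 3 tested genes of each list with the smallest p among those reported, and the 3 genes nearest to Fosl2. Of the listed genes 2, one of them past the threshold, are not reported here, and the counts, medians and plot of the lists leave them out. On simulated counts of this comparison (200 changed among 8200 genes, 5 simulations) 2-fold changes were found in 0.92% of cases, 4-fold in 19.8% and 8-fold in 32.4%, and 8.21% of calls were false. The labels do not say that a shared replicate number marks a shared culture, so the main test did not use it as a pairing. A replicate block was used in other settings only. Same-numbered libraries did not deviate together (r = -0.017, -0.0026 and -0.0067).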

Additional observations from a re-analysis of the deposited data

How the results depend on the processing

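No gene of the 10 was called in 13 of 17 other settings. In the other 4 (DESeq2, no count filter, molecule equivalents, and the replicate block with coding length and GC removed) 1 was called, Fosl2, and under molecule equivalents Fosl2 was also the 1 gene of the 10 still tested, among 968 genes. The replicate block alone called 0 of them and 38 genes in all, and placed Fosl2 at 1.71. Over all genes, 33 were called, against 234 by DESeq2, 91 with no count filter, 110 as molecule equivalents and 50 with the replicate block and coding length and GC removed. Leaving out single libraries gave 6 to 29 calls over all genes (15 without KO replicate 1, 20 without KO replicate 2, 18 without KO replicate 3, 29 without WT replicate 1, 6 without WT replicate 2 and 6 without WT replicate 3) and 0 among the 10. Library totals in place of TMM moved the split to 27 higher and 16 lower, against 15 and 18 with TMM. Directions over the 17 settings were compared for the 9 genes of the main test. They reversed only for Jun (-0.34), Jund (-0.27) and Egr1 (-0.67) without KO replicate 3 and for Egr1 without WT replicate 2 (-0.33). Without single libraries their fold changes ran from -0.34 to 0.58 (Jun), -0.27 to 1.696 (Jund) and -0.67 to 0.77 (Egr1). The directions of Fos, Fosb, Fosl2, Junb, Atf3 and Ier2 held in each setting that tested them, but without single libraries their sizes ran from -0.81 to -0.021 (Fos), 0.31 to 1.55 (Fosb), 1.30 to 2.11 (Fosl2), 0.98 to 1.455 (Junb), 2.76 to 6.33 (Atf3) and -1.44 to -0.21 (Ier2). The cause of these shifts was not tested. Fosb, Atf3, Egr1 and Fosl1 had the fewest fragments, averaging 0.61, 0.83, 1.04 and 0.59 molecule equivalents.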

Other observations

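Junb and Ier2 are neighbours on chromosome 8, with starts 313 kb apart, and had log2 fold changes of opposite sign (1.14, SE 0.59, and -0.66, SE 0.91), neither of them called by edgeR. Whether the 2 changes differ was not tested.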
